A study of Mus musculus with 20 samples.

Results

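Interleukin 6 and the interleukin-12 family are secreted cytokines that macrophages make when they meet bacterial products, and 6 genes that encode them or their chains are described here: Il6, Il12a, Il12b, Il23a, Il27 and Ebi3. They were chosen by name, as every non-control probe of the array whose gene name is one of the 6, out of 30119 gene names in all. Each name had 1 probe, and all 6 probes passed the filter on dim probes. The measurements come from 20 arrays of bone marrow derived macrophages of C57BL/6 mice, grown for 6 days in medium with M-CSF from L929 cells, moved to serum-free medium and then given 200 ng/mL LPS of Salmonella or left untreated. The labels name 4 genotypes: wild-type, knockouts of 1 adapter each (MyD88-KO and TRIF-KO), and double-KO, a knockout of MyD88 and TRIF together. Each genotype had 5 arrays, 1 each for 1, 2, 4, 8 and 16 h, and each array set LPS-treated RNA in 1 colour against untreated RNA of the same genotype and time in the other. The LPS-treated RNA carried Cy5 on 19 arrays, and on the remaining 1, MyD88-KO at 2 h, it carried Cy3, so that ratio was turned round. The labels give no other allele or agent, no age and no line or construct for the knockouts, and do not say whether arrays came from separate animals or cultures. P-values therefore measure the spread between these arrays only. The main fits of responses and levels first take out the time effect that the genotypes share. The spread that is left holds the departures of each genotype from that shared course, and is pooled over the 4 genotypes.

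Interleukin 6 acts through its receptor chain Il6ra and the shared signalling chain gp130, encoded by Il6st. The interleukin-12 family is built from pairs of chains. Il12b (p40) pairs with Il12a (p35) to form interleukin 12, and with Il23a (p19) to form interleukin 23. Ebi3 pairs with Il27 (p28) to form interleukin 27, and with Il12a to form interleukin 35. LPS is sensed by Tlr4, which signals through the adapters MyD88 and TRIF (gene Ticam1). The genotypes address which part of the cytokine response runs through each adapter.

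The 60-base probes lie, in the mm9 build of the file headers, at chr5:30346367-30346426 on the plus strand for Il6 and chr3:68502346-68502405 on the plus strand for Il12a. The Il12b probe lies at chr11:44227121-44227180 on the plus strand and is printed in 10 spots per array. Those of Il23a (chr10:127733766-127733825) and Il27 (chr7:133736137-133736196) are on the minus strand, and that of Ebi3 (chr17:56096309-56096368) is on the plus strand. The exon or UTR that holds each probe was not annotated here.

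The promoters of 3 members that rose with LPS in wild-type cells are shown because their LPS responses ran at different heights: the highest wild-type ratio was 489.5-fold for Il6, 103.4-fold for Il12b and 4.52-fold for Ebi3. RefSeq sequence (GRCm38.p6) was matched for 4 of the 6 members. Il12a has 2 annotated starts, and Il23a and Il27 are named only. The 250 bases before the annotated start are chr5:30012864-30013113 for Il6, chr11:44399813-44400062 for Il12b and chr17:55952373-55952622 for Ebi3, all on the plus strand. Capitals mark matches, on either strand, to the NF-kB consensus, AP-1 (TGANTCA), a C/EBP core (TGCAAT), the CRE core (GACGTC) and an ISRE core (GAAA and GAAA with 2 bases between).
Il6: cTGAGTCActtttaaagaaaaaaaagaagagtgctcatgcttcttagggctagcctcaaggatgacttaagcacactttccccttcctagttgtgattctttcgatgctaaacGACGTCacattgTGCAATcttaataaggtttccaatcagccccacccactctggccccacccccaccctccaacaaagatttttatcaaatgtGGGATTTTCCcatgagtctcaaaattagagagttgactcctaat
Il12b: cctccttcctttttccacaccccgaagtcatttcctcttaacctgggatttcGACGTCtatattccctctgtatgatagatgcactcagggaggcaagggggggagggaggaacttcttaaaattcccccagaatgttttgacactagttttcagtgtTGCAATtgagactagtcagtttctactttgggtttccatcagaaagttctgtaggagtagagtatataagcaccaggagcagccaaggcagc
Ebi3: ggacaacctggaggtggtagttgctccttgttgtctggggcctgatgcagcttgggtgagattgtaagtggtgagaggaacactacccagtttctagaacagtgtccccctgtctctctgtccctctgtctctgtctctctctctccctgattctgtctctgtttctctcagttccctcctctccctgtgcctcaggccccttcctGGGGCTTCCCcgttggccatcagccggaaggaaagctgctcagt
The Il6 window held 1 match each to AP-1 from base -249, the CRE core from base -137, the C/EBP core from base -125 and the NF-kB consensus from base -44, counted back from the start. In Il12b the CRE core began at base -198 and the C/EBP core at base -92. In Ebi3 the NF-kB consensus began at base -44. No 2 matches overlapped. Of all 32851 windows of this length in the table, 7.25% held the NF-kB consensus, 6.75% AP-1, 7.32% the C/EBP core, 3.77% the CRE core and 2.98% the ISRE core. Of the Il12a windows, the one that starts at chr3:68690394 held 1 C/EBP core and the other none of the 5 motifs. These matches describe letters only.

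Several facts of the whole series touch these results. Ticam1 was at 10.8 ± 0.280 (SD, n = 5) on the normalized log2 scale in untreated TRIF-KO-labelled cells, against 10.6 ± 0.193 in wild-type cells (n = 5) and 7.28 ± 0.0442 in double-KO cells (n = 5). The transcript of the gene for TRIF was thus at the wild-type level on the arrays labelled TRIF-KO, and these are called TRIF-KO-labelled throughout. Myd88 lay between 14.0 and 14.5 on average in all 4 genotypes, at 14.2 in MyD88-KO and 14.0 in double-KO against 14.4 in wild-type cells. Its transcript was thus not absent on the arrays labelled as MyD88 knockouts either, and those names are also the labels' own. Whether the probe of Myd88 or of Ticam1 lies in the changed part of each allele is not given in the sources used here. All 8 macrophage markers were well above background on all 20 arrays in both channels. Of 8 dendritic cell markers, Xcr1 was well above background on no array, and the summed untreated level of the list lay between 16.99 and 17.42 in all genotypes. Siglech made up 99.2% to 99.3% of that sum, and the other 7 averaged 6.63 to 8.14 by genotype, with Zbtb46 at 8.14 in wild-type and 7.20 in double-KO cells. Xist averaged 10.2 in wild-type and 10.3 in MyD88-KO untreated cells and 6.52 and 6.40 in TRIF-KO-labelled and double-KO cells, while Eif2s3y of the Y chromosome averaged 14.2 in the last pair and 6.50 and 6.59 in the first. Sex-linked expression therefore moved with genotype in every comparison except wild-type with MyD88-KO and TRIF-KO-labelled with double-KO. All wild-type and TRIF-KO-labelled arrays and the MyD88-KO arrays of 1 and 2 h were scanned on 1 day, and all other arrays on the second day.

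Il6, which encodes the cytokine of fever and the acute-phase response, gave the highest ratios of the family. On the log2 scale of LPS over untreated, its wild-type ratios were 3.40 at 1 h, 8.28 at 2 h, 8.94 at 4 h, 8.13 at 8 h and 3.98 at 16 h. In linear terms the 4 h ratio was 489.5-fold. The TRIF-KO-labelled arrays gave 2.87, 6.04, 7.72, 8.50 and 7.67 at the same times. Wild-type ratios were thus high from 2 to 8 h and lower at both ends, whereas the TRIF-KO-labelled ratios were highest at 8 h and still near that value at 16 h. The MyD88-KO arrays gave Il6 ratios of 2.19, 5.01, 6.78, 6.12 and 4.68. In double-KO cells the ratios were 0.00, 0.15, -0.23, -0.31 and -0.25, and neither channel was well above background on any of the 5 arrays. The double-KO ratios did not overlap those of any other genotype for Il6, nor did they for Il12b. The share of all genes without such overlap was not counted.

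Il12b, which encodes the p40 chain shared by interleukins 12 and 23, followed Il6 in its shape over time in wild-type cells, at a lower height. Its wild-type ratios were 1.43, 6.46, 6.69, 5.54 and 1.49 at 1, 2, 4, 8 and 16 h. The TRIF-KO-labelled arrays gave 1.01, 5.25, 6.30, 6.22 and 4.77, and the MyD88-KO arrays 0.38, 4.72, 4.82, 3.23 and 0.19. At 16 h Il12b was thus back near its 1 h ratio in wild-type cells and not well above background in MyD88-KO cells, and still high on the TRIF-KO-labelled array. In MyD88-KO cells its shape differed from that of Il6, whose ratio was still 4.68 at 16 h. On the TRIF-KO-labelled arrays Il12b was highest at 4 h and Il6 at 8 h. The double-KO ratios were 0.01, 0.02, -0.02, 0.09 and 0.06, with no array well above background in either channel. The 10 spots of the probe agreed closely: their ratios within an array had an SD between 0.0117 and 0.202, with a median of 0.116.

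Il12a, which encodes the p35 chain of interleukin 12, differed from Il12b in which arrays showed it. In wild-type cells its ratios were 0.18, 0.76, 3.71, 2.48 and 0.84, and the LPS-treated channel was well above background on 4 of 5 arrays, all but 1 h. The TRIF-KO-labelled arrays gave -0.01, 0.23, 0.61, 5.12 and 5.20, with 3 of 5 well above background, those of 4 to 16 h. The highest Il12a ratio was thus at 4 h in wild-type cells and at 8 and 16 h on the TRIF-KO-labelled arrays. MyD88-KO ratios were -0.08, -0.18, 0.37, 0.10 and -0.06 and double-KO ratios ran from -0.03 to 0.13, with no array of either genotype well above background in either channel. On the MyD88-KO array of 4 h the LPS-treated channel was well above background for Il12b and not for Il12a.

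Il23a, which encodes the p19 chain of interleukin 23, was seen on few arrays. Its wild-type ratios were 0.57, 2.59, 0.67, 0.13 and 0.13, well above background in the LPS-treated channel on 3 of 5 arrays. The MyD88-KO ratios were 0.13, 1.87, 0.01, -0.17 and -0.10, and only the 2 h array, which is the dye-swapped one, was well above background. Both genotypes thus showed Il23a highest at 2 h, on a single array each, and for MyD88-KO cells that time point and the dye swap cannot be told apart. The TRIF-KO-labelled ratios of 0.41, 0.34, 0.13, 0.38 and 0.14 and the double-KO ratios of -0.22 to 0.05 came from arrays none of which was well above background in the LPS-treated channel.

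Il27, which encodes the p28 chain of interleukin 27, was well above background in both channels of all 20 arrays. Its ratios were -0.01, 0.58, 3.32, 1.84 and 0.10 in wild-type cells and -0.05, 0.12, 1.34, 2.17 and 0.54 on the TRIF-KO-labelled arrays. In MyD88-KO cells they were 0.02, 0.54, 2.58, 2.77 and 1.08. Il27 was thus the 1 member whose ratio was lower on the TRIF-KO-labelled array than on the MyD88-KO array at all 5 time points. Double-KO ratios lay between -0.05 and -0.00.

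Ebi3, whose product is the partner chain of p28, was also well above background in both channels of all 20 arrays. Its wild-type ratios were 0.25, 0.29, 2.18, 2.13 and 0.77, and its TRIF-KO-labelled ratios 0.06, 0.08, 1.47, 1.93 and 1.20. MyD88-KO cells gave 0.06, 0.64, 0.54, 0.88 and 0.26. The ratios of 4, 8 and 16 h were therefore lower in MyD88-KO cells than in the other 2 responding genotypes, the reverse of what Il27 showed at 8 and 16 h. Double-KO ratios ran from -0.17 to 0.13.

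**Figure D1:**
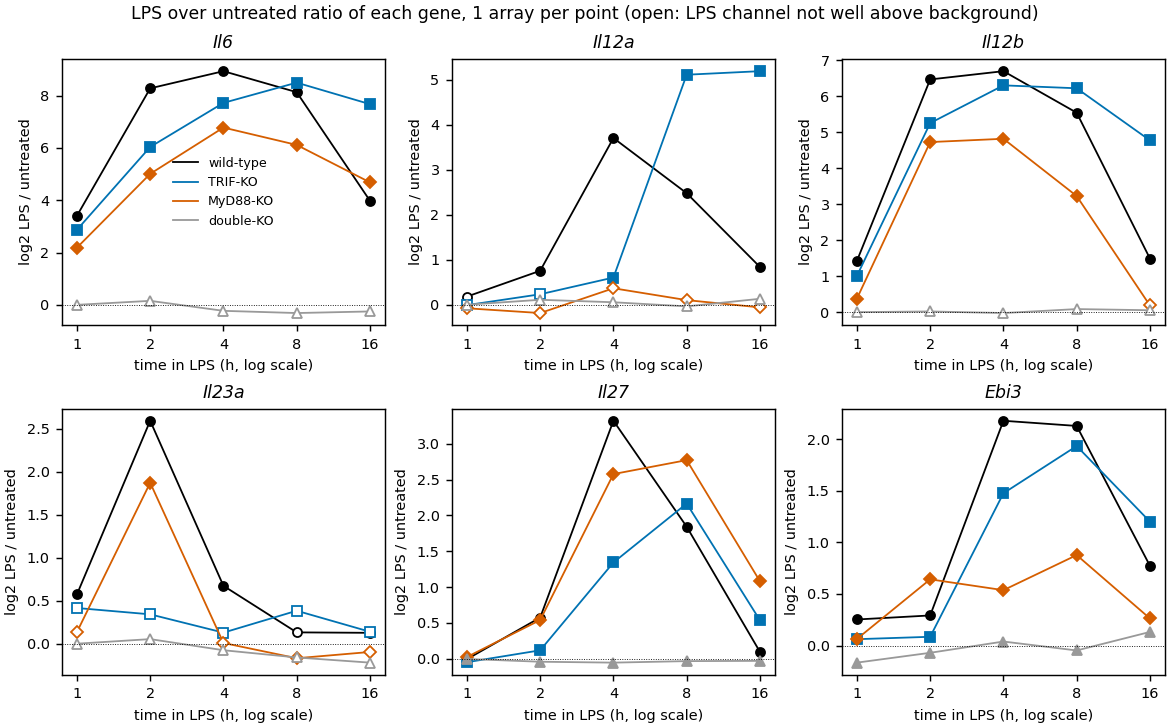
Log2 ratio of LPS-treated over untreated intensity (vertical axes, which differ in range by gene) against hours in LPS (log scale) for the 6 genes, 1 array per point; filled points are well above background in the LPS-treated channel. Il6 and Il12b stay high at 16 h on the TRIF-KO-labelled array, Il12a is filled in wild-type and TRIF-KO-labelled cells alone, and the double-KO ratios stay between -0.31 and 0.15 for all 6 genes.

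The mean response of each genotype over its 5 time points was tested with limma across all genes, with time point as a block and Benjamini-Hochberg adjustment. As the spread was pooled over genotypes, each member has the same SE in each of them. For Il6 the SD of the 5 ratios was 2.63 in wild-type and 0.197 in double-KO cells, so the pooled SE describes neither genotype alone. In wild-type cells 5 of the 6 genes were higher with LPS and none lower, against 16.7% of all 21963 genes called higher and 19.7% lower. Il6 rose by 6.55 on the log2 scale, or 93.5-fold (SE 0.585, adjusted p = 1.2e-05). Il12b rose by 4.32 (SE 0.568, adjusted p = 0.00015). Smaller mean responses passed for Il27 (1.17, SE 0.293, adjusted p = 0.0075), Ebi3 (1.12, SE 0.204, adjusted p = 0.0011) and Il23a (0.82, SE 0.215, adjusted p = 0.0095). Il23a was well above background on 4 of the 20 arrays, 3 of them wild-type with LPS. It thus met the filter of 3 arrays only through the group in which it was called higher, and its part in the count of 5 is no separate support. Il12a averaged 1.59 (SE 0.610, adjusted p = 0.054) and missed the threshold. As its untreated level was below background on every wild-type array, Il12a is also given as a bound of at least 2.57-fold, or 1.73-fold without the 4 h array. The untreated channel was well above background on 3 of 5 wild-type arrays for Il12b and on 1 of 5 for Il23a, so these mean ratios rest in part on untreated signal not well above background. The calls of Il23a and Ebi3 ended with scan day in the fit, that of Il23a also without the 2 h array, with slide as a random block or with a dye term, and that of Il27 without the 4 h array, without the time block or with a dye term. With slide as a fixed block none of the 5 passed, nor did any of all 21963 genes, and 4 of the 5 wild-type arrays lie on 1 slide.

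On the TRIF-KO-labelled arrays 5 of 6 genes were called higher and none lower, against 12.9% of all genes higher and 16.2% lower. Il6 rose by 6.56 (SE 0.585, adjusted p = 1.3e-05) and Il12b by 4.71 (SE 0.568, adjusted p = 0.00014). Il12a rose by 2.23 (SE 0.610, adjusted p = 0.014), Ebi3 by 0.95 (SE 0.204, adjusted p = 0.0037) and Il27 by 0.82 (SE 0.293, adjusted p = 0.048). Il23a averaged 0.28 (SE 0.215, adjusted p = 0.36). Untreated Il12b was well above background on 4 of 5 and untreated Il12a on 1 of 5 of these arrays. The Il12a call rests on the 8 and 16 h arrays: without the first the mean response was 1.58 and without the second 1.42, and neither passed. The Il27 call was held in 13 of 30 alternative settings and was lost, among others, without any one of the TRIF-KO-labelled arrays and in the fit without the block. The calls of Il12a and Ebi3 were held in 26 and 27 of 30 alternative settings. Both were lost with a dye term in the fit, where Il6 and Il12b alone passed and 323 of all 21963 genes were called. With scan day in the fit fewer than 5 members passed, Il6 and Il12b among them.

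In MyD88-KO cells 3 of 6 genes were called higher and none lower, against 16.8% and 18.7% of all genes. Il6 rose by 4.96, or 31.0-fold (SE 0.585, adjusted p = 0.00016). Il12b rose by 2.67 (SE 0.568, adjusted p = 0.0035) and Il27 by 1.40 (SE 0.293, adjusted p = 0.0033). Ebi3 averaged 0.48 (SE 0.204, adjusted p = 0.083) and Il23a 0.35 (SE 0.215, adjusted p = 0.22), while Il12a was not well above background in either channel. Untreated Il12b was well above background on 1 of 5 MyD88-KO arrays. The Il27 call was lost with slide as a fixed block and with a dye term. All 8 neutrophil markers were well above background on the MyD88-KO arrays, and their summed untreated level was 16.69 to 17.04 there against 15.17 to 15.97 in the other genotypes. S100a9 made up 62.2% to 72.4% of this sum. By mean untreated level 6 of the 8 markers were highest in MyD88-KO cells, while Ly6g was highest in wild-type (10.3, against 9.07 with MyD88-KO) and Elane in double-KO cells (13.1, against 12.9 with MyD88-KO). The part of these markers in the MyD88-KO results was not tested.

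In double-KO cells 0 of the 6 genes passed, by limma, and 0 had an unadjusted p under 0.05. Of all genes, 0.328% were called higher and 0.00455% lower. Mean responses lay between -0.13 for Il6 and 0.05 for Il12a, and Il6, Il12a, Il12b and Il23a were well above background in the LPS-treated channel on no array. In RNA from whole cultures, fewer responding cells and less RNA per cell cannot be told apart.

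The mean responses were then compared between genotypes in the same fit. Against double-KO cells, wild-type cells had a higher mean log2 response for 3 of 6 genes, where 5.93% of all genes were called higher. The differences were 6.67 for Il6 (95% confidence interval 4.90 to 8.45, adjusted p = 0.00071), 4.29 for Il12b (2.57 to 6.01, adjusted p = 0.0074) and 1.15 for Ebi3 (0.53 to 1.76, adjusted p = 0.024). Il27 (1.20, adjusted p = 0.071) and Il23a (0.90, adjusted p = 0.065) missed the threshold. The Ebi3 call was lost without the 4 or 8 h array of either genotype. On the TRIF-KO-labelled arrays the response exceeded that of double-KO cells for 2 genes, where 3.56% of all genes were called higher. These were Il6 (6.69, 95% confidence interval 4.92 to 8.46, adjusted p = 0.00076) and Il12b (4.68, 2.96 to 6.40, adjusted p = 0.0069).

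MyD88-KO cells also had 2 genes above double-KO cells, where 5.72% of all genes were called higher. The differences were 5.08 for Il6 (95% confidence interval 3.31 to 6.85, adjusted p = 0.0064) and 1.43 for Il27 (0.54 to 2.32, adjusted p = 0.045), and Il12b at 2.64 just missed (adjusted p = 0.051). The Il27 call was lost when 1 array was left out, whether wild-type 1, 2 or 4 h, any TRIF-KO-labelled array, or the 4, 8 or 16 h array of MyD88-KO or double-KO cells. At 4, 8 and 16 h, which were scanned on 1 day in both genotypes, the MyD88-KO minus double-KO difference averaged 6.12 for Il6, 2.70 for Il12b and 2.18 for Il27, over 3 time points and with no test.

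The 3 comparisons with double-KO cells share the double-KO arrays. In both directions, the share of all genes called rose to 18.7%, 14.7% and 19.6% without the double-KO 1 h array, and fell to 3.40%, 1.08% and 0.929% without that of 8 h, in the order in which the comparisons were given. Double-KO ratios did not follow the shared time effect of the other genotypes, with correlations of same-time arrays from -0.19 to 0.13. Without time point as a block, Il6 alone still passed against double-KO cells in wild-type and TRIF-KO-labelled cells, and no member did in MyD88-KO cells (adjusted p = 0.069 for Il6, in a range of 0.00013 to 0.64 over the alternatives tried). Of all genes, that fit called 256, 76 and 60. Scan day and genotype cannot be told apart for wild-type or TRIF-KO-labelled against double-KO cells time by time. In the fit with scan day as a block, Il6 was still called in both and Il12b and Ebi3 were not, while 2087 and 872 of all genes were called. With slide as a fixed block the wild-type minus double-KO estimate turned to -2.22 for Il12b and -0.84 for Ebi3, and no member passed in any of the 3 comparisons. In that setting 0 of all genes passed in each of them. No member passed either in fits of the 2 groups alone, which hold fewer arrays and called 8, 74 and 4 of all genes.

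Among the 3 responding genotypes the mean responses of the 6 genes were not told apart by limma. Of all genes, 0% were called in each of the 3 pairs. Without the MyD88-KO 1 h array this share was 1.87% for wild-type and 6.09% for TRIF-KO-labelled against MyD88-KO cells, and still no member passed. For Il6 the wild-type minus TRIF-KO-labelled difference was -0.01 with a 95% confidence interval of -1.78 to 1.76, and the wild-type minus MyD88-KO difference 1.59 with an interval of -0.18 to 3.36. Unadjusted p-values under 0.05 were found for 0 members in wild-type against TRIF-KO-labelled cells and for 1 in wild-type against MyD88-KO cells, Ebi3 (0.65, interval 0.03 to 1.27, adjusted p = 0.33). For TRIF-KO-labelled against MyD88-KO cells there were 2: Il12a (2.20, interval 0.35 to 4.04, adjusted p = 0.19) and Il12b (2.04, interval 0.32 to 3.76, adjusted p = 0.19).

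**Figure D2:**
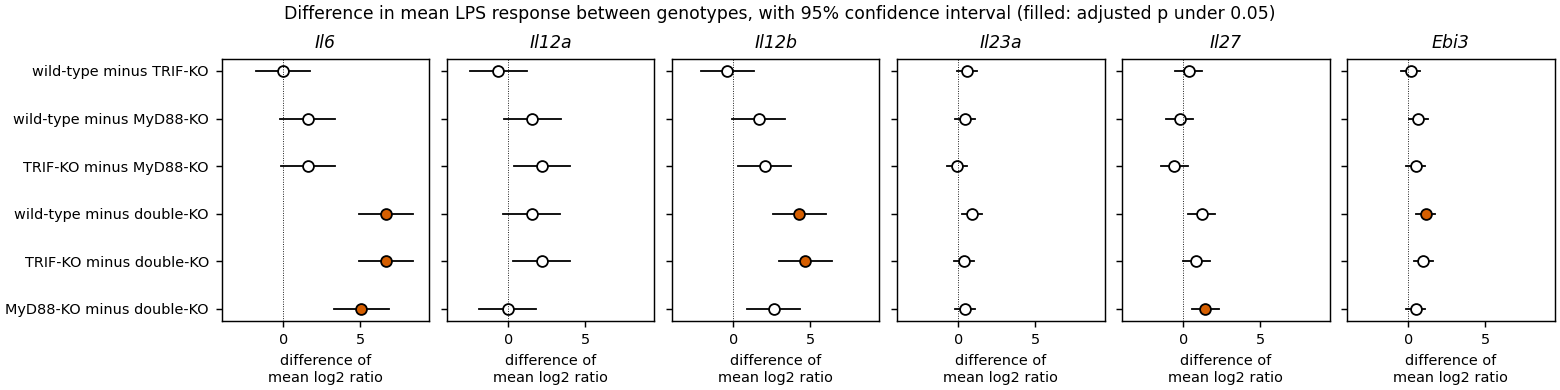
Difference in mean log2 LPS response between each pair of genotypes (horizontal axes) for the 6 genes, with the 95% confidence interval of the limma fit as a line; filled points passed at an adjusted p under 0.05. Il6 is filled in all 3 comparisons with double-KO cells, and the 3 upper comparisons, among the responding genotypes, have no filled point.

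A mean over 5 time points hides where the genotypes cross. For Il6 the wild-type ratio was above the TRIF-KO-labelled one by 2.24 at 2 h and below it by 3.69 at 16 h. At 16 h the wild-type minus TRIF-KO-labelled difference was also -4.35 for Il12a and -3.28 for Il12b. With 1 array per genotype and time these single differences have no replicate check. The slope of the ratio over log2 time was not called different between genotypes for any member. A slope does not measure a rise followed by a fall, and no other contrast of times was tested. Of all genes, the slope differed for 0% between wild-type and TRIF-KO-labelled cells, for 1.08% between wild-type and MyD88-KO cells and for 3.88% between TRIF-KO-labelled and MyD88-KO cells. With single arrays left out the last 2 shares ran from 0.0865% (without the double-KO 4 h array) to 2.01% (without the wild-type 1 h array) and from 0.592% (without the TRIF-KO-labelled 16 h array) to 5.12% (without the wild-type 16 h array). Il12a came closest, at 1.50 per doubling of time between TRIF-KO-labelled and MyD88-KO cells (SE 0.433, adjusted p = 0.073), and passed when the wild-type 4 h or 16 h array was left out.

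Levels in each colour show what lies behind the ratios. The LPS-treated level of Il6, as a normalized log2 intensity, was 10.77, 15.95, 18.38, 17.33 and 11.64 at 1 to 16 h in wild-type cells and 10.18, 13.05, 16.38, 18.69 and 16.72 on the TRIF-KO-labelled arrays. In MyD88-KO cells it was 9.23, 11.81, 13.76, 13.30 and 11.82, and in double-KO cells 6.48 to 6.75. The mean levels ran from TRIF-KO-labelled (15.0 ± 3.37, SD, n = 5) and wild-type (14.8 ± 3.42, n = 5) over MyD88-KO (11.98 ± 1.77, n = 5) to double-KO cells (6.66 ± 0.113, n = 5). The first 3 overlap within their spread over time. As Il6 was below background in double-KO cells, it was at least 263-fold higher in LPS-treated wild-type cells and at least 38.2-fold higher in MyD88-KO cells. With 1 array left out the first bound ran from 142-fold (without wild-type 4 h) to 530-fold (without wild-type 1 h), and the second from 25.6-fold (without MyD88-KO 4 h) to 72.9-fold (without MyD88-KO 1 h). Such bounds set the mean of the brighter group against the detection floor of the dimmer one, and are open to dye bias.

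Fitted over the 19 arrays with LPS-treated RNA in Cy5, which leaves out the swapped array, 4 of 6 genes had higher LPS-treated levels in wild-type cells than with double-KO, against 12.1% of all genes. These were Il6, Il12b, Il27 and Ebi3. The level difference was 2.04 for Ebi3 (SE 0.344, adjusted p = 0.0011) and 1.76 for Il27 (SE 0.526, adjusted p = 0.023). For Il12b it was 5.42 (SE 1.07, adjusted p = 0.0027), and the bound was at least 38.5-fold, or 19.6-fold without the wild-type 4 h and 75-fold without the wild-type 1 h array. Without the wild-type 4 h array, or the 4 or 8 h array of double-KO cells, or without the time block, Il27 was no longer called. On the TRIF-KO-labelled arrays 3 genes were above double-KO cells, Il6, Il12b and Ebi3, against 9.37% of all genes. Il12b was there at least 52.9-fold higher, or 31.6-fold without the array of 8 h and 120-fold without that of 1 h.

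In MyD88-KO cells Il6 was the 1 member above double-KO cells in LPS-treated level, by 5.31 (SE 1.24, adjusted p = 0.011), against 8.57% of all genes. This count ranged from 1 to 4 when single arrays were left out, with the most when the double-KO 1 h array was left out, and was 2 without the wild-type 4 h, the MyD88-KO 1 h or the double-KO 2 h array; without the time block it was 0. Il12a is given as bounds: it was at least 2.73-fold higher in wild-type and at least 5.32-fold higher in TRIF-KO-labelled than in MyD88-KO cells with LPS. The first bound fell to 1.85-fold without the wild-type 4 h array, and the second ran from 2.84-fold without the TRIF-KO-labelled 16 h array to 8.40-fold without that of 1 h. Il23a was at least 1.45-fold higher in wild-type than in TRIF-KO-labelled cells, or 1.05-fold without the wild-type 2 h array. With scan day as a block in the level fit, none of the 4 wild-type and 3 TRIF-KO-labelled calls against double-KO cells passed. Of all 21963 genes, 2945 and 2876 still did.

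Between the responding genotypes no member passed in LPS-treated level. Of all genes 0.0364% were called higher in wild-type than in TRIF-KO-labelled cells, 0.209% higher in wild-type than in MyD88-KO cells and 1.03% higher in TRIF-KO-labelled than in MyD88-KO cells. Counted in both directions, the last 2 shares rose to 7.30% and 8.31% without the MyD88-KO 1 h array, and were as low as 0.0729% without the 8 h array of wild-type or MyD88-KO cells and 0.228% without the MyD88-KO 8 h array. The numbers of members with an unadjusted p under 0.05 were 0, 3 and 4 in these comparisons. Ebi3 differed by 1.28 between wild-type and MyD88-KO cells (95% confidence interval 0.48 to 2.08, adjusted p = 0.12), and was higher in wild-type cells at all 5 time points. Il12b was higher in wild-type than in MyD88-KO cells at all 5 time points too (3.05, interval 0.57 to 5.53, adjusted p = 0.19). At 2 h both counts set a Cy5 level against the Cy3 level of the swapped array, which the fit leaves out, so dye and genotype cannot be told apart there. The wild-type minus MyD88-KO difference of the ratio at 2 h was -0.35 for Ebi3 and 1.74 for Il12b. Without the MyD88-KO 1 h array, 1 member passed in wild-type against MyD88-KO cells, Ebi3 at 1.46. The levels of the 8 neutrophil markers in MyD88-KO cells, of which 6 were highest there and Ly6g and Elane were not, lie beside these differences.

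Untreated levels also differed between genotypes. Il6 was 7.37, 7.67, 9.44, 9.20 and 7.65 in untreated wild-type cells and 7.31, 7.01, 8.66, 10.19 and 9.04 on the TRIF-KO-labelled arrays. In MyD88-KO cells it stayed between 6.80 and 7.19, and in double-KO cells it was not well above background. The untreated level was thus highest on the same arrays, wild-type 4 h and TRIF-KO-labelled 8 h, on which the LPS-treated level was highest. Untreated Il12b showed the same, with 9.24 at 4 h in wild-type cells and 9.23 at 8 h on the TRIF-KO-labelled array against 6.75 and 6.77 at 1 h. The part of the LPS-treated signal on the same array in these untreated values was not tested.

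Against wild-type cells, 4 members were lower in untreated double-KO cells, where 10.6% of all genes were called lower. The differences were -1.47 for Il6 (SE 0.378, adjusted p = 0.010), -1.13 for Il12b (SE 0.393, adjusted p = 0.046), -0.56 for Il27 (SE 0.130, adjusted p = 0.0060) and -0.89 for Ebi3 (SE 0.197, adjusted p = 0.0043). As bounds, the untreated channel of wild-type arrays was at least 2.45-fold brighter for Il6 and at least 1.74-fold brighter for Il12b than that of double-KO arrays. These bounds take in the wild-type 4 h array (9.44 and 9.24), on which the LPS-treated channel was brightest. The part of that signal in them was not tested, and they were not recomputed with single arrays left out. All wild-type arrays were scanned on 1 day and all double-KO arrays on the other, as were the MyD88-KO arrays of 4, 8 and 16 h. Scan day and genotype thus cannot be told apart between wild-type and double-KO arrays. Scan day was not fitted for untreated levels. Sex-linked expression also differed between wild-type and double-KO cells. Il6 alone was lower in untreated MyD88-KO cells (-1.36, SE 0.408, adjusted p = 0.048), where 3.66% of all genes were called lower. No member was lower on the TRIF-KO-labelled arrays, where 0.223% of all genes were. Without time point as a block 2 members, Il27 and Ebi3, were lower in double-KO cells and 0 in MyD88-KO cells, and with slide as a random block 0 in both. The Il6 call in MyD88-KO cells was lost without any one of the wild-type 1, 2, 4 or 8 h, TRIF-KO-labelled 2 or 4 h, MyD88-KO 4, 8 or 16 h, or double-KO 4 or 16 h arrays. The Il12b call in double-KO cells was lost without the wild-type 2, 4 or 8 h, TRIF-KO-labelled 4 or 16 h, MyD88-KO 8 or 16 h, or double-KO 4, 8 or 16 h array, and both calls were lost with no filter on dim probes.

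**Figure D3:**
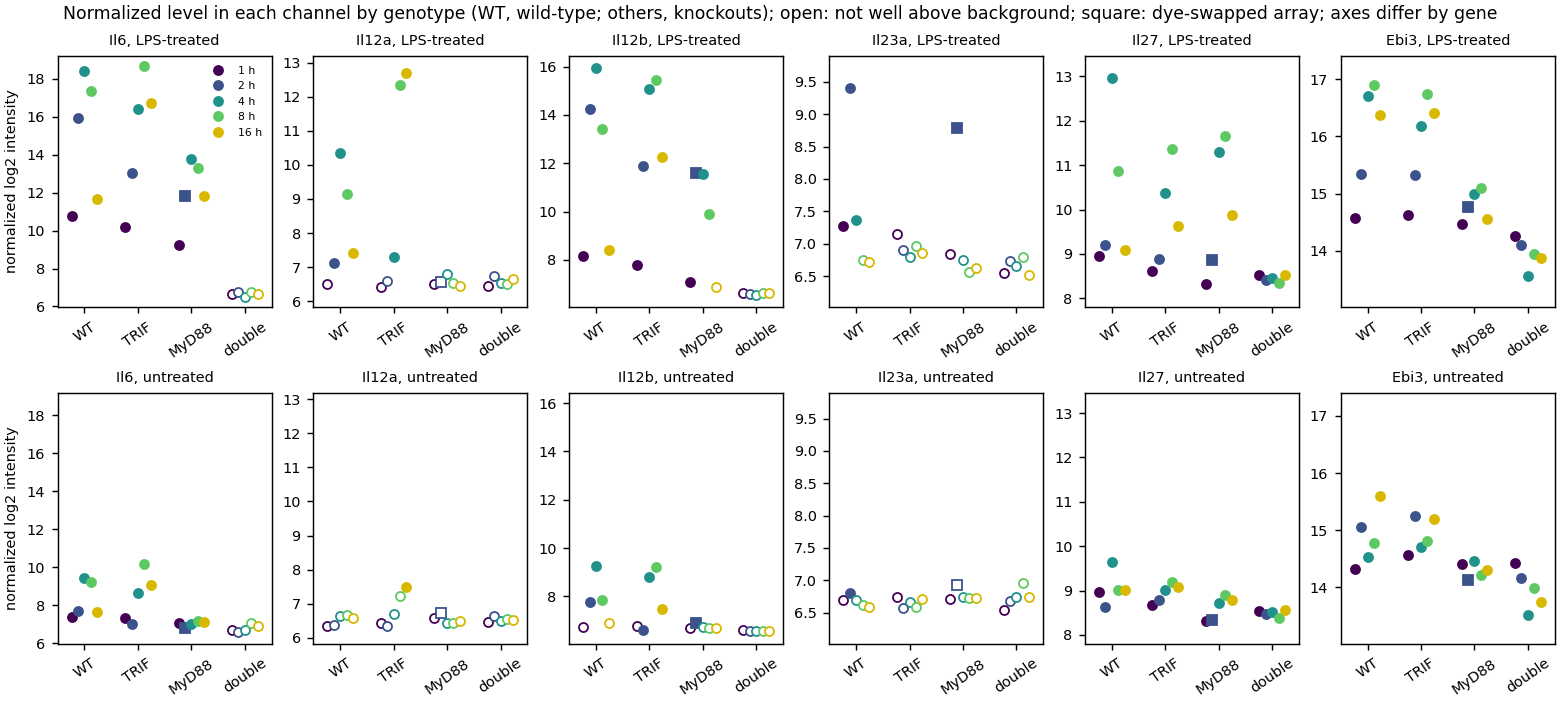
Normalized log2 intensity of the LPS-treated (upper row) and untreated RNA (lower row) of each gene by genotype, 1 point per array coloured by hours in LPS; filled points are well above background and squares mark the dye-swapped array. Il6 and Il12b points of double-KO cells are open in both rows. The untreated Il6 points of 4 h in wild-type cells (9.44) and 8 h on the TRIF-KO-labelled array (10.19) are the highest of their genotype. In wild-type cells the point of 8 h (9.20) lies close to that of 4 h.

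Genes of the same pathways were set beside the family by lists. The counts that follow stand against the shares of all genes given above, 16.7% higher and 19.7% lower in wild-type cells, 12.9% and 16.2% on the TRIF-KO-labelled arrays and 16.8% and 18.7% in MyD88-KO cells, and medians against -0.01, -0.02 and 0.00 for all genes. Of 6 receptor chains, Il6st and Il6ra fell in wild-type cells and Il23r rose, with a list median of -0.00; 1 of 6 higher is near the share of all genes. Il6st, the gp130 chain, fell by 0.94 (SE 0.205, adjusted p = 0.0035) and Il6ra by 0.74 (SE 0.166, adjusted p = 0.0040). Both also fell on the TRIF-KO-labelled arrays, by 1.25 and 1.06, and in MyD88-KO cells, by 0.59 and 0.72, while Il23r rose in each. With LPS, Il23r was well above background on 3 of 5 wild-type, 2 of 5 TRIF-KO-labelled and 2 of 5 MyD88-KO arrays. Untreated, it was so on 2, 1 and 2 arrays, so its calls rest in part on signal not well above background. Il12rb1, the receptor chain that interleukins 12 and 23 share, was called in MyD88-KO cells, where it rose by 2.08 (SE 0.460, adjusted p = 0.0042) with a highest ratio of 4.95 at 8 h. Its ratios in wild-type cells reached 0.82.

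Among 8 genes of the kinases, STATs and SOCS proteins downstream of these receptors, 5 rose in wild-type, 2 on the TRIF-KO-labelled arrays and 7 in MyD88-KO cells, and none fell. The list medians were 0.66, 0.31 and 0.87. Socs3, the inhibitor that binds gp130, rose by 2.63 in wild-type (SE 0.0837, adjusted p = 2.5e-10), 2.08 in TRIF-KO-labelled and 1.96 in MyD88-KO cells, and its ratios in wild-type cells stayed between 2.07 and 3.34 at all 5 time points. Jak2, a kinase of the interleukin 12 and 23 receptors, rose by 2.15, 1.50 and 1.94. Socs1 rose by 1.89 with MyD88-KO and by 1.17 when wild-type, and Stat3, the main STAT of interleukin 6, was also called in wild-type cells, at 0.79.

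Of 11 transcription regulators linked to these genes, 8 rose in wild-type cells, 7 rose and 1 fell on the TRIF-KO-labelled arrays, and 6 rose in MyD88-KO cells. The list medians were 1.15, 1.20 and 0.72. Cebpb, a factor also known as NF-IL6, rose by 2.26 in wild-type (SE 0.235, adjusted p = 3.4e-05), 1.81 in TRIF-KO-labelled and 1.02 in MyD88-KO cells. Nfkbiz, whose product acts with NF-kB at secondary response genes, rose by 2.22, 2.26 and 2.49. Cebpd rose in wild-type (1.79) and TRIF-KO-labelled cells (2.17), and its ratios in MyD88-KO cells ran from -1.31 to 1.30. Rel, which encodes c-Rel, was also among the 4 largest in wild-type cells, at 1.85. Irf1 was the largest in MyD88-KO cells, where it rose by 3.14 (SE 0.410, adjusted p = 0.00029), and Irf8, named because it was the 1 gene of the list that fell, did so on the TRIF-KO-labelled arrays, by 0.73 (SE 0.167, adjusted p = 0.0055).

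Of 5 regulators of mRNA decay, 4 rose in wild-type cells and 2 in each of the other responding genotypes, and the list medians were 1.34, 0.41 and 0.65. Zc3h12a, which encodes the nuclease Regnase-1 that degrades Il6 mRNA, rose by 1.96 (SE 0.272, adjusted p = 0.00021) in wild-type and by 2.01 in TRIF-KO-labelled cells. Zfp36, which encodes tristetraprolin, rose by 1.45 in wild-type cells, 1.06 on the TRIF-KO-labelled arrays and 1.31 with MyD88-KO. Arid5a, whose product stabilizes Il6 mRNA, rose by 1.92 with MyD88-KO and by 1.34 in wild-type cells (SE 0.331 and adjusted p = 0.0068 in the latter), and Rc3h2 rose by 0.49 in wild-type cells. Rc3h1, a roquin gene, fell by 0.53 in MyD88-KO cells, where 18.7% of all genes were called lower.

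Of 7 other ligands of the gp130 family, 3 rose in wild-type cells, Osm (oncostatin M) by 1.47 (SE 0.159, adjusted p = 4.5e-05), Clcf1 by 0.87 and Lif by 0.35. Osm and Clcf1 also rose on the TRIF-KO-labelled arrays, by 1.18 and 0.53, and Osm and Cntf in MyD88-KO cells, by 0.78 and 0.56. On the TRIF-KO-labelled arrays Clcf1 was well above background on 3 of 5 with LPS and on 1 of 5 untreated. The list medians were 0.20, 0.10 and 0.09. In double-KO cells no gene of any of the 5 pathway lists passed.

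Each member was also set beside the genes whose log2 ratios ran most like its own over the 20 arrays, by Pearson correlation among 21729 genes. These values describe arrays that share genotypes and times, 5 of them double-KO arrays with ratios near 0. Among those closest to Il6 were Ptgs2, which encodes cyclooxygenase 2 (r = 0.97), and Cish (0.96). Ptgs2 had mean log2 ratios of 6.33 in wild-type cells, 6.16 on the TRIF-KO-labelled arrays, 4.57 with MyD88-KO and -0.03 with double-KO, beside 6.55, 6.56, 4.96 and -0.13 for Il6. For Il12b they were the transcript listed as TC1637523 (0.98), Rrs1 (0.97) and Ppm1b (0.97), and for Il12a they were Syngr4 (0.95), ENSMUST00000028141 (0.94) and Tcp1 (0.94). The Il12b neighbours moved far less than Il12b, Rrs1 by 1.41 in wild-type cells. For Il23a the closest was Areg, which encodes amphiregulin (0.97), followed by 9130017K11Rik (0.96) and B230216N24Rik (0.91). Il27 ran closest with Dcp2 (0.96), Cers6 (0.96) and Etv6 (0.96), and Ebi3 with Gm10404 (0.96), St7 (0.95) and Atp6v1e1 (0.95). Within the family, Il6 and Il12b ran most alike (r = 0.93), and Il23a with Il27 least (r = -0.01).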

How the data were processed

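The authors deposited 1 scanner file per array, made with Agilent Feature Extraction 10.10.1.1 (mm9), per the file headers. These hold the mean and background intensity of each spot in both colours, and a log10 ratio, Cy5 over Cy3, of the signals that the authors' software had processed. The deposited value table equals that log10 ratio within 5e-10, with a median of 0 in each column and the swapped array not turned. Flags for well above background (coded 0 or 1) are also those of the deposited files.

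Here intensities were corrected with normexp (offset 50) and normalized by loess within arrays, in limma 3.58.1 under R 4.3.3 (the data.table package, version 1.17.8, read the files). Control spots were left out, spots of 1 probe averaged, and probes kept if well above background in a colour on at least 3 arrays (28304 of 39429). Levels were quantile normalized for mean log intensity between arrays. Each of 21963 genes was represented by its brightest kept probe. Of the probes, 27234 were named through a RefSeq accession, 3576 through a symbol and 565 through a synonym; the other 8054 go by the file's name. The number of arrays limits the precision.

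Log2 ratios of LPS over untreated, computed here from the deposited intensities, were fitted with genotype and time point as a block, and tested with limma's moderated test at an adjusted p of 0.05. Replicate numbers are time points of the labels. Same-time deviations correlated at 0.74 to 0.83 for wild-type with TRIF-KO-labelled arrays and 0.28 to 0.70 for wild-type with MyD88-KO. They correlated at 0.22 to 0.57 for TRIF-KO-labelled with MyD88-KO, and -0.19 to 0.13 for pairs with double-KO. The first 3 genotypes thus shared a time course. Arrays of the same number share a time in LPS, so these values cannot show whether cultures were paired. The fit was also run on simulated ratios, drawn with independent noise and with the same time effect in every genotype. Double-KO ratios did not follow that effect, so this run cannot show how well the fit suits these arrays. Arrays lay on 5 slides, and no slide holds the same time point in more than 1 genotype, so within-slide values cannot be had.

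All 6 members are named. Of each pathway list up to 4 genes are named per comparison, those with the largest difference past the threshold, and for each member the 3 genes most like it; some genes that these rules name are not reported here. The members, lists and motifs were chosen with earlier results of these data known. Alternatives tried were the block, slide, scan day, a dye term, background correction, scaling, the filter, the probe rule, the deposited values, the 2 groups alone and each array left out. The scan day block in the LPS-treated level fit and the within-day values were added after seeing the data.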

Additional observations from a re-analysis of the deposited data

Results flagged for a closer look

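In 52 groups of 5 arrays examined, 5 single values stood apart from the other 4 of their genotype. A chance rate of about 1 in 20 groups would hold for 5 arrays of the same kind. It cannot be set against this count, as the 5 arrays are different times and a peak in time can give such a value. The Il23a ratio and level of the same array are also counted separately. The TRIF-KO-labelled array of 1 h had an Il12b log2 ratio of 1.01, below the other 4. The wild-type array of 2 h had an Il23a log2 ratio of 2.59 and an LPS-treated level of 9.40, above the other 4. The MyD88-KO array of 2 h had an Il23a log2 ratio of 1.87 and an LPS-treated level of 8.79, also above the other 4. As each array of a genotype is another time point, such a value is an array or a time. Without the wild-type 2 h array the Il23a response of wild-type cells was 0.52 and no longer passed.

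The mean log2 response differed between genotypes by limma's test of the difference for 7 pairs of gene and comparison. Against double-KO cells, wild-type cells had higher responses of Il6 (6.67), Il12b (4.29) and Ebi3 (1.15). TRIF-KO-labelled cells had higher responses of Il6 (6.69) and Il12b (4.68) than double-KO cells. MyD88-KO cells had higher responses of Il6 (5.08) and Il27 (1.43) than double-KO cells. All 7 comparisons share the 5 double-KO arrays.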

How the results depend on the processing

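The number of members past the threshold changed by over 1.5 times in the following settings. Counts of all genes are given beside these in the same order, in both directions. Without the replicate block, response differences from double-KO cells passed for 1 member in wild-type, 1 in TRIF-KO-labelled and 0 in MyD88-KO cells, LPS-treated levels of MyD88-KO over double-KO cells for 0, and untreated levels against wild-type cells for 0 with MyD88-KO and 2 with double-KO. Of all genes, 256, 76 and 60 passed in the differences, 1635 in the LPS-treated level, and 250 and 2206 in the untreated levels. With slide as a random block the response difference counts were 1 for wild-type and 1 for MyD88-KO against double-KO cells, the LPS-treated level counts 2 and 0, and the untreated counts 0 with MyD88-KO and 0 with double-KO. The all-gene counts were 140 and 210, 1268 and 1310, and 625 and 2013. With slide as a fixed block the response counts were 0 in wild-type and 3 in TRIF-KO-labelled cells and the 3 difference counts 0, 0 and 0. Of all genes, 0 and 1956 passed in these responses and 0, 0 and 0 in the differences, so no gene of the array passed where no member did. In this setting 2 wild-type minus double-KO estimates reversed, Il12b to -2.22 and Ebi3 to -0.84, and the cause was not tested. With scan day as a block the response counts were 3 in wild-type and 3 in TRIF-KO-labelled cells and the difference counts from double-KO cells 1 and 1. Here 6976 and 5214 of all genes passed in the responses and 2087 and 872 in the differences. The same block added to the level fit gave 0 for wild-type, 0 for TRIF-KO-labelled and 2 for MyD88-KO over double-KO cells, beside 2945, 2876 and 5868 of all genes. A dye term, which rests on the 1 swapped array, gave response counts of 3 in wild-type and 2 in TRIF-KO-labelled cells. It left 457 and 323 of all genes, against 7988 and 6380 in the main fit. The deposited log ratio gave 5 for wild-type minus double-KO (2773 of all genes). Fits of the 2 groups alone, with fewer arrays, gave 0, 0 and 0 for the 3 comparisons with double-KO cells, where 8, 74 and 4 of all genes passed. No filter gave 1 for the MyD88-KO minus double-KO response and 0 for the untreated MyD88-KO level, beside 1408 of 30118 and 2021 of 30117 genes. For the LPS-treated level of MyD88-KO over double-KO cells, no background correction gave 2 and the processed signal 3, beside 4094 and 3581 of all genes. Leaving out 1 array gave 1 to 4 members for that level, 0 to 1 for wild-type over MyD88-KO cells, 0 to 2 for untreated MyD88-KO cells, 1 to 2 for the MyD88-KO minus double-KO response, 3 to 5 for the TRIF-KO-labelled response and 0 to 1 for the slope of TRIF-KO-labelled minus MyD88-KO cells. The shares of all genes ran from 7.12% to 27.4%, 0.0729% to 7.30%, 3.78% to 16.7%, 0.929% to 19.6%, 14.8% to 30.4% and 0.592% to 5.12%. Il6 passed in the response of TRIF-KO-labelled and MyD88-KO cells, and Il12b in both as well, under all 30 settings run. Where a gene was not well above background on some arrays of a group, its mean ratio rests in part on that signal, whatever the setting. The pathway genes were fitted in the main setting alone.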
